A study of Mus musculus with 12 samples.

Results

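The Siglec family comprises sialic-acid-binding immunoglobulin-like lectins of leukocytes. All 7 genes sought, Siglecf, Siglece, Siglecg, Cd33, Siglech, Siglec1 and Cd22, were found by symbol among the 55291 genes of the deposited table, and they were compared in alveolar macrophages between ozone and filtered air. The cells had been flow-sorted from lungs of female C57BL/6NJ mice aged 8 to 11 weeks. One group of 6 mice had breathed 0.8 ppm ozone and the other group of 6 mice filtered air, for 4 h daily on 4 days in a row, with lungs taken 3 days later. The sort ran in 2 batches with 3 mice of each group, and each sample came from 1 mouse. The study's question is pulmonary tolerance to repeated ozone.

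Siglecs read the sialic acid that caps glycans on the cell's own surface and on its neighbours. Siglece, Siglecf, Siglecg and Cd22 encode receptors with cytoplasmic inhibitory tyrosine motifs, through which the phosphatases encoded by Ptpn6 and Ptpn11 are recruited and activation is damped. Siglech lacks such motifs and signals through the adaptor DAP12, encoded by Tyrobp. Siglec1, also called sialoadhesin or CD169, is a long adhesion receptor of macrophages. In the mouse lung the Siglecf protein is a standard marker of alveolar macrophages and of eosinophils.

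Siglec1 and Siglece rose after ozone, and the sort marker gene Siglecf did not pass the test. Siglec1 rose by 0.26 and Siglece by 0.19 on the deposited log2 scale. Cd33 and Cd22 had positive differences, and Siglecg and Siglech negative ones, that missed the threshold. Values are variance-stabilized expression relative to the filtered-air mean, which is 0 in every gene, so the level of one gene cannot be set against that of another, and the change of a gene with few reads is compressed. In limma, fitted over 19633 genes with flow-sort batch as a covariate, 2 of the 7 members had a Benjamini-Hochberg adjusted p under 0.05, against 4.25% of all genes tested; both were higher, a direction taken by 2.41% of all genes. At an unadjusted p under 0.05 the count was 6 of 7, against 16.7% of all genes. The median difference of the members was 0.13, and that of all genes tested was -0.0033.

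All 7 members had reads in all 12 mice, so none was lost to the filter on low values. RNA integrity numbers lay between 8.9 and 9.7. Sequencing depth relative to the other mice, inferred from the smallest step above 0 reads, lay between 0.871 and 1.22. Neither measure differed between the groups in a two-sided exact permutation test, with p = 0.747 for integrity and p = 0.827 for depth. The markers listed for alveolar macrophages had reads in all 12 mice in 15 of 15 cases. Their levels relative to other genes were not kept in the deposited values, so levels were compared only between mice. Presence does not tell these cells from others. All 7 B cell markers and all 9 markers of monocytes and interstitial macrophages also had reads in all mice. So did 17168 of the 19633 genes tested. Of the alveolar macrophage markers 2 were called higher (Car4 and Chil3) and 1 lower (Krt79), or 20% against 4.25% of all genes tested. An unadjusted p under 0.05 was found in 8 of the 15, against 16.7% of all genes. Leaving out 1 mouse gave 0 to 3 called higher and 1 to 3 called lower. The count called higher was 0 without filtered-air mouse 1 or 3 or ozone mouse 1 or 4, and 3 without filtered-air mouse 4. Without ozone mouse 1, 3 were called lower. Filtered-air mouse 4 lay at the end of every cell type list and had the lowest integrity number (8.9). It had the lowest mean of the alveolar macrophage markers (-0.10). Its means of the B cell, monocyte, neutrophil, eosinophil and plasmacytoid dendritic cell lists were the highest (0.39, 0.25, 0.24, 0.19 and 0.096). In the monocyte list it was close to ozone mouse 5 (0.23) and filtered-air mouse 5 (0.21). The eosinophil mean rests on the 3 markers that could be tested, Il5ra, Cebpe and Alox15. Without filtered-air mouse 4, 2 of the 7 members were called, as with it, and the other 5 remained uncalled. Siglec1 was then at 0.27 (limma's adjusted p = 0.0214) and Siglece at 0.20 (limma's adjusted p = 0.0263). In such bulk samples a smaller share of cells that carry a transcript and less transcript per cell cannot be told apart.

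**Figure D1:**
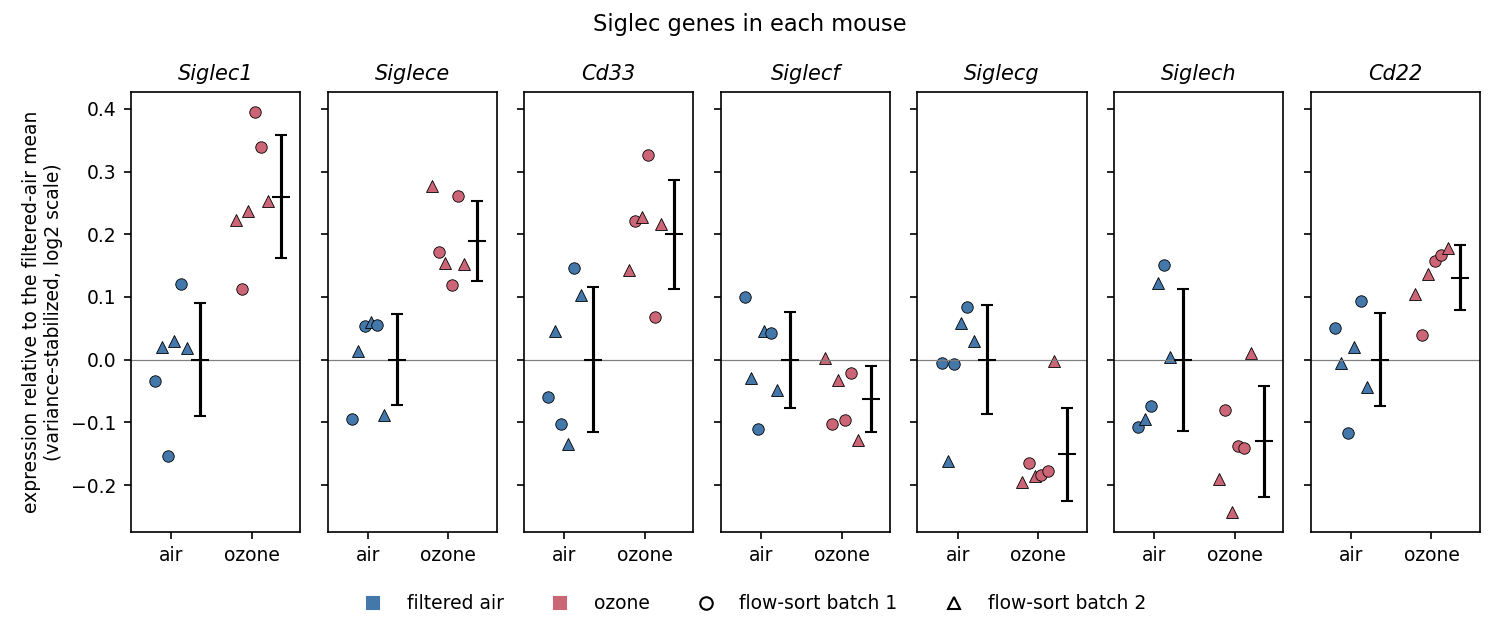
Expression of the 7 Siglec genes in each mouse, relative to the filtered-air mean on the deposited log2 scale (y axis), for 6 filtered-air and 6 ozone mice; circles and triangles mark the flow-sort batches, and the bars give the mean and SD. In Siglece the ozone mice, from 0.12 upward, all lie above the filtered-air mice, which end at 0.060, and in the other 6 genes the groups overlap.

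Siglec1 had the largest difference of the family. In filtered air its values ran from -0.15 through a median of 0.019 to 0.12, and after ozone from 0.11 through 0.24 to 0.39. Of the ozone mice, 5 of 6 lay above every filtered-air mouse, and the sixth, ozone mouse 2, lay just under filtered-air mouse 5. The rise was 0.26 (SE 0.0537, 95% interval 0.15 to 0.38, limma's adjusted p = 0.0133). The SD among the 6 ozone mice was 0.0980 and among the 6 filtered-air mice 0.0903. The rise was 0.31 within batch 1 and 0.22 within batch 2. The call held in all 12 fits that left out 1 mouse, with adjusted p-values from 0.00944 to 0.0371, and was lost after quantile normalization (0.22, adjusted p = 0.0793). Its absolute difference exceeded that of 97.3% of the genes tested. Siglec1 lies apart from the other members, on chromosome 2 (131069220 to 131086765, minus strand, GRCm38).

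Other lung macrophages also carry Siglec1, so markers of monocytes and interstitial macrophages are given beside it. Of these 9 genes, 6 were positive and 3 negative, 1 had an unadjusted p under 0.05, against 16.7% of all genes, and 0 were called in limma. The largest positive differences were those of C1qa, C1qb and C1qc (0.22, 0.26 and 0.21). The 3 negative ones were those of Ly6c2, F13a1 and Lyve1 (-0.15, -0.054 and -0.17). Without filtered-air mouse 4 the median of the 9 genes moved from 0.053 to 0.11, again with 0 called in limma and 2 at an unadjusted p under 0.05. Their summed level ran from -0.78 to 2.09 after ozone and from -2.42 to 2.29 in filtered air, with medians of 0.43 and -0.053, and all 9 had reads in all mice. Their part in the rise of Siglec1 was not tested.

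Siglece encodes an inhibitory receptor of neutrophils, monocytes and macrophages, and was the one member whose groups did not overlap, against 3.53% of all genes tested (1.96% higher and 1.58% lower after ozone). Its filtered-air values ran from -0.094 through a median of 0.034 to 0.060, and its ozone values from 0.12 through 0.16 to 0.28. Every ozone mouse lay above every filtered-air mouse, in each batch as well. Siglece rose by 0.19 (SE 0.0436, 95% interval 0.096 to 0.28, limma's adjusted p = 0.0241). The SD was 0.0642 among the 6 ozone mice and 0.0725 among the 6 of filtered air. The differences within the batches were 0.18 and 0.20. The call was lost in limma when filtered-air mouse 1 or 6 or ozone mouse 1 or 5 was left out, with adjusted p-values of 0.0636, 0.0534, 0.0518 and 0.0619, while the difference stayed between 0.17 and 0.20; quantile normalization also ended it (0.17, adjusted p = 0.132). Of 8 neutrophil markers, 6 could be tested, 3 positive and 3 negative, and 0 were called in limma (1 with an unadjusted p under 0.05, against 16.7% of all genes). Without filtered-air mouse 4 their median moved from 0.035 to 0.14, and 1 gene, Csf3r, was called lower. Ly6g had reads in 1 mouse and Camp had 1 constant value in all 12. The summed neutrophil level ran from -0.38 to 0.46 after ozone and from -0.76 to 1.41 in filtered air; its part in the rise of Siglece was not tested.

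Siglecf, Siglecg, Cd33 and Siglece lie near each other on chromosome 7, between 43351341 and 43660161. They are related in sequence, and how reads matching several of them were counted is not given in the sources used here, so their values are uncertain to that extent. The sequence upstream of the start is shown for the sort marker gene Siglecf and for Siglece, the member of this cluster that was called, followed by a stretch that Siglecf shares with Cd33. The 250 bases before the RefSeq start (GRCm38.p6) are printed 5′ to 3′ on the gene's strand for Siglecf, at chr7:43351091-43351340 (plus strand), and for Siglece, at chr7:43660162-43660411 (minus strand). Neither window overlaps an annotated exon. Capitals mark matches, on either strand, to GAGGAA, a purine-rich box of the kind bound by the myeloid factor PU.1.
Siglecf: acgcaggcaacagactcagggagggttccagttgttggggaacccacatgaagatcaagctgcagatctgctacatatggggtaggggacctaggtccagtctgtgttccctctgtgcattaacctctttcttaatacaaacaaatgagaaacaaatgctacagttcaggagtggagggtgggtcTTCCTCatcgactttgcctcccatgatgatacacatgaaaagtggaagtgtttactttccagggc
Siglece: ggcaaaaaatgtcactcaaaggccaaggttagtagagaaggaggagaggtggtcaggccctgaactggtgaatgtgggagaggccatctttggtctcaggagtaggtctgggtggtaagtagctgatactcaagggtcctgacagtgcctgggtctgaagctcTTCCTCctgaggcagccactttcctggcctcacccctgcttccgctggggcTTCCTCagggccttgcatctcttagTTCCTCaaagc

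The Siglece window held 3 such matches, 87, 36 and 11 bases before the start, and the Siglecf window held 1, 65 bases before it. Among 32536 upstream windows of the same length, 23.4% held at least 1 match and 0.427% held 3 or more. Cd33 had 1 match and Siglecg 2 in 1 of its 2 windows, while none was found in Cd22 or Siglech. The windows of Cd22, Siglecg, Cd33 and Siglech overlap annotated exons of the same gene in GENCODE, and those of Cd22 and Cd33 lie within the gene as annotated there, so these windows precede a RefSeq start and not every annotated start. Of the members, 6 of 7 matched the table of upstream sequences (all but Siglec1). The interferon response core, GAAA followed by any 2 bases and GAAA, present in 2.98% of all windows, was found in none of the 6. The gamma-interferon-activated site TTCNNNGAA, present in 7.04%, was found in Siglech. The RUNX core TGTGGT, present in 14.0%, was found in Cd33 and Siglech, where it shared 1 base with the former. The motifs were chosen after these windows had been seen, and matching letters describe the window without showing that a factor binds.

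The windows of Siglecf and Cd33 aligned best among 15 pairs of members, over a stretch that begins 30 bases before the RefSeq start of Siglecf (chr7:43351311-43351337) and 160 bases before that of Cd33 (chr7:43533304-43533331, minus strand). In Cd33 it lies within the gene as GENCODE annotates it (43524216 to 43544428), in a window that overlaps 1 exon. This alignment scored 34, and those of the other pairs 16 to 22. Unrelated windows were not aligned, so how rare such a stretch is was not tested. Capitals mark the 24 of 28 aligned positions that are identical.
Siglecf: TGaAAAGTGGAAGTGTTTAcTTTCcAG
Cd33: TGgAAAGTGGAAGTGTTTAaTcTTCaAG

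Cd33 encodes the receptor that gave its name to the CD33-related branch of the family and is carried by myeloid cells. Filtered-air values ran from -0.13 through -0.0063 to 0.15, and ozone values from 0.069 through 0.22 to 0.33. Among the ozone mice, 4 of 6 lay above every filtered-air mouse, and the groups overlapped through ozone mice 1 and 5. The difference was 0.20 (SE 0.0570, 95% interval 0.078 to 0.32), short of the threshold over all genes (limma's adjusted p = 0.0662). It was 0.21 in batch 1 and 0.19 in batch 2, where the groups did not overlap. Cd33 passed without filtered-air mouse 5 (difference 0.23, limma's adjusted p = 0.0354), without ozone mouse 5 (0.23, adjusted p = 0.0484) and without a batch term (0.20, adjusted p = 0.0429).

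For Siglecf, whose protein is commonly used to gate these cells, the values ran from -0.11 through 0.0067 to 0.10 in filtered air and from -0.13 through -0.064 to 0.0023 after ozone. The groups lay over each other, and 1 ozone mouse of 6 was below the filtered-air range. The difference was -0.063 (SE 0.0427, limma's adjusted p = 0.523), with a 95% interval from -0.15 to 0.028. Sorting on the protein would bear on what its transcript can show, and the gates are not given in the sources used here. Eosinophils carry Siglecf too. Of 7 eosinophil markers, 3 could be tested. Of these 0 were called in limma and 0 had an unadjusted p under 0.05, against 4.25% and 16.7% of all genes. The defining granule gene Epx had 1 constant value in all 12 mice, Prg3 had reads in 1 mouse, Ccr3 in 2 and Prg2 in 5. The summed level of the 3 tested ran from -0.38 to 0.064 after ozone and from -0.22 to 0.58 in filtered air.

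**Figure D2:**
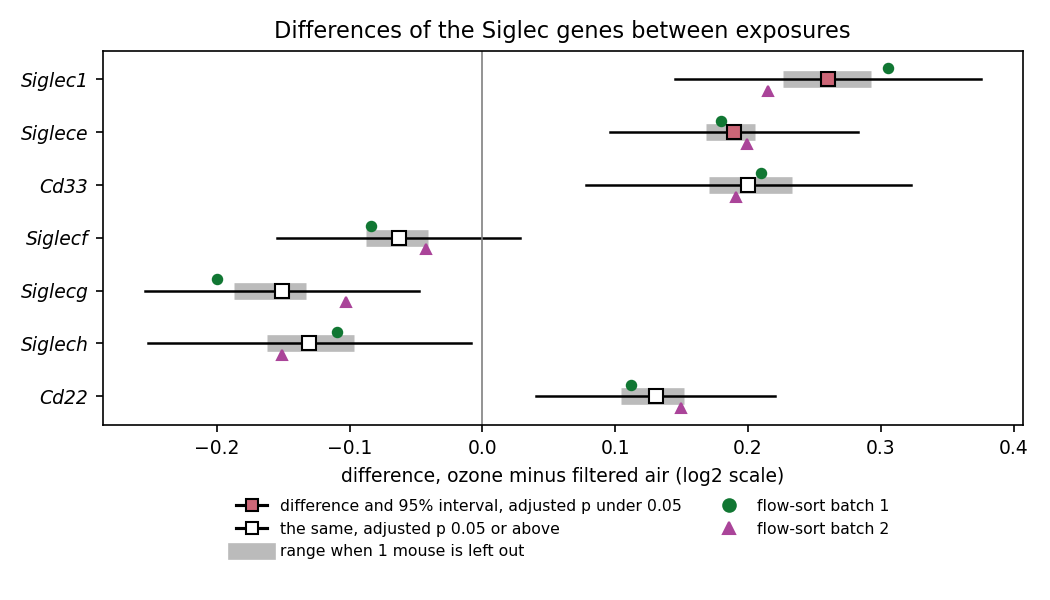
Difference of each Siglec gene between ozone and filtered air on the deposited log2 scale (x axis): squares with the 95% interval from limma, filled where the adjusted p is under 0.05, grey bands for the range when 1 mouse is left out, and symbols for each flow-sort batch. All 7 genes keep the sign of their difference in both batches and in every fit that left out 1 mouse, and the interval of Siglecf, -0.15 to 0.028, spans 0.

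Siglecg, an inhibitory receptor of B cells and some myeloid cells, had filtered-air values from -0.16 through 0.012 to 0.084 and ozone values from -0.19 through -0.18 to -0.0014. Among the ozone mice, 5 of 6 lay below every filtered-air mouse and close together, and ozone mouse 6 lay at the level of filtered air. The difference was -0.15 (SE 0.0482, 95% interval -0.25 to -0.048), which missed the threshold (limma's adjusted p = 0.103). It was -0.20 in batch 1, where the groups did not overlap, and -0.10 in batch 2. Siglecg passed when ozone mouse 6 (difference -0.18, limma's adjusted p = 0.0315) or filtered-air mouse 2 (-0.19, adjusted p = 0.0328) was left out.

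Cd22, best known as the inhibitory co-receptor of B cells, had a difference of the opposite sign. Its values ran from -0.12 through 0.0078 to 0.094 in filtered air and from 0.040 through 0.15 to 0.18 after ozone. Among the ozone mice, 5 of 6 lay above every filtered-air mouse, and ozone mouse 2 lay within their range. The difference was 0.13 (SE 0.0420, 95% interval 0.041 to 0.22, limma's adjusted p = 0.106), 0.11 in batch 1 and 0.15 in batch 2, and it passed in 0 of 22 alternative fits. Cd22 lies on chromosome 7 (30865402 to 30880342, minus strand), distant from the cluster of Siglecf, Siglecg, Cd33 and Siglece.

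B cell markers are given beside these 2 genes. All 7 (Ms4a1, Cd79a, Cd79b, Pax5, Fcmr, Ighm and Ighd) had reads in all 12 mice and a negative difference, with a median of -0.20, or -0.12 without filtered-air mouse 4. Of them 4 had an unadjusted p under 0.05, against 16.7% of all genes, and 0 were called in limma. With filtered-air mouse 2 left out, 3 of the 7 were called lower in limma and 6 had an unadjusted p under 0.05. The median was then -0.27. With any other mouse left out, 0 of these markers were called. Their summed level ran from -2.66 to -0.42 after ozone and from -1.67 to 2.74 in filtered air, with the highest mean in filtered-air mouse 4 (0.39) followed by filtered-air mouse 5 (0.14). Those 2 mice also held the highest values of Siglecg, at 0.059 and 0.084. In Cd22 they lay at 0.021 and 0.094, below most ozone mice. The part of B cell RNA in either gene was not tested.

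Siglech, a marker of plasmacytoid dendritic cells and of microglia, had filtered-air values from -0.11 through -0.035 to 0.15 and ozone values from -0.24 through -0.14 to 0.011. Of the ozone mice, 4 of 6 lay below every filtered-air mouse. The difference was -0.13 (SE 0.0567, 95% interval -0.25 to -0.0088, limma's adjusted p = 0.257), -0.11 in batch 1 and -0.15 in batch 2, and it passed in 0 of 22 alternative fits. Of 8 markers of plasmacytoid dendritic cells, 7 were negative; the 1 called gene, Pacsin1, was the positive one. These counts of 1 called, or 12.5%, and 4 with an unadjusted p under 0.05 stand against 4.25% and 16.7% of all genes. The count called depended on single mice. When ozone mouse 1 or 6 was dropped, 1 marker was called higher, as it was without filtered-air mouse 4. With ozone mouse 4 left out, 0 were called higher and 1 lower. In the remaining fits that left out a mouse, 0 of these markers were called. Their summed level ran from -0.90 to -0.10 after ozone and from -0.64 to 0.77 in filtered air, highest in filtered-air mouse 4, and Klk1 had reads in 6 of 12 mice. Siglech lay at 0.12 in that mouse and at 0.15 in filtered-air mouse 5, its 2 highest values. The part of such cells was not tested. Siglech lies on chromosome 7 (55768178 to 55778925, plus strand).

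**Figure D3:**
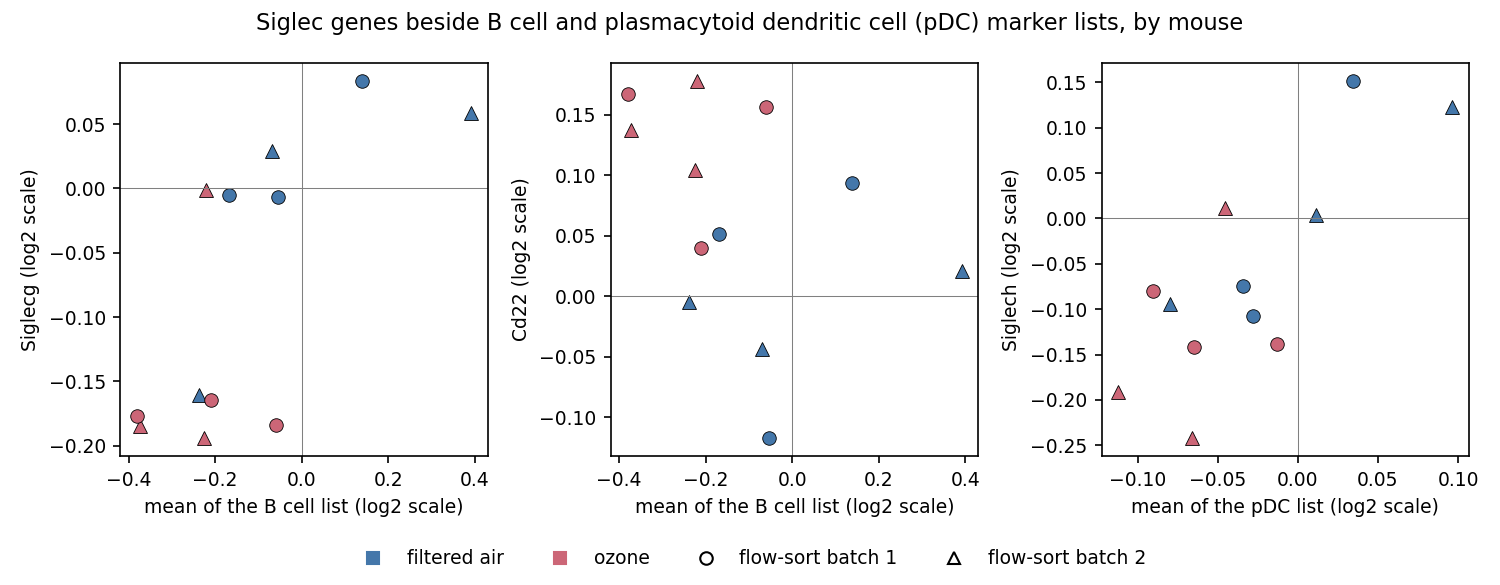
Siglecg and Cd22 against the mean of 7 B cell markers, and Siglech against the mean of 8 plasmacytoid dendritic cell (pDC) markers, 1 point for each of 12 mice; all axes are relative to the filtered-air mean on the deposited log2 scale. Filtered-air mice 4 and 5, the rightmost points in each panel, hold the highest Siglecg and Siglech values, and the ozone mice, left of 0 in every panel, hold the 5 highest Cd22 values.

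The members also varied within each group. Filtered-air mouse 5 was the highest of its group in 5 of the 7 genes, namely Siglec1, Cd33, Cd22, Siglecg and Siglech. After ozone, mouse 6 was the highest in Siglecg, Siglech and Cd22 and the lowest in Siglecf, and mouse 4 was the highest in Siglec1 and Cd33 and the lowest in Siglece. With group and batch means removed, the genes most like Siglec1 across the 12 mice were Tulp4 (Pearson r = 0.974, Spearman rho = 0.972), Xcr1 (r = 0.954), Atp8a1 (r = 0.945), Gm20163 (r = 0.935) and Herc2 (r = 0.931). Those most like Siglecf were Gm18227 (r = 0.936, rho = 0.895), Gm10054 (r = 0.921), Nceh1 (r = 0.920), Fbxo7 (r = 0.895) and Gm5417 (r = 0.895). Without the 2 mice farthest from the median these correlations were 0.857 to 0.942 for Siglec1 and 0.783 to 0.929 for Siglecf. They are the highest among all genes tested and are a description without a test. None of the 10 genes was itself called between the exposures, with limma's adjusted p-values from 0.316 to 0.966.

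Genes that act downstream of Siglecs were measured next. Among 9 genes of inhibitory signalling 0 were called in limma and 0 had an unadjusted p under 0.05, against 4.25% and 16.7% of all genes. The median difference was 0.019. The phosphatase genes Ptpn6, Ptpn11 and Inpp5d had differences of 0.042, -0.072 and -0.0012, with limma's adjusted p-values of 0.711, 0.354 and 0.997. Of 8 genes around the DAP12 adaptor 0 were called in limma and 0 had an unadjusted p under 0.05, beside the same shares of all genes. The median was 0.021. Tyrobp itself differed by 0.012 (adjusted p = 0.952), and the related adaptor gene Fcer1g, which had the smallest p-value of the list, differed by 0.087 (adjusted p = 0.436). Of the further Siglec genes, Mag differed by 0.050 (adjusted p = 0.591), and Siglec15 had 1 constant value in all mice.

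Sialyltransferases, which place the sialic acid that Siglecs bind, were called lower in 3 cases. Of 20 listed, 16 could be tested, and 3 of 16 were called, or 18.8%, against 1.84% of all genes called lower. Another 9 had negative differences and 4 positive ones, and the median was -0.053. Filtered-air mouse 4 had the highest mean of the list, at 0.082, and without it 2 were called lower, 12 of 16 differences were negative and the median was -0.046. St6galnac6, which acts on gangliosides and related glycolipids, was the furthest down. Its values ran from -0.14 to 0.14 in filtered air and from -0.62 to -0.25 after ozone, without overlap, and it fell by 0.46 (SE 0.0604, limma's adjusted p = 0.00101).

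St6gal1 makes the linkage to galactose that CD22 prefers. Its values ran from -0.15 through 0.010 to 0.11 in filtered air and from -0.35 through -0.28 to -0.14 after ozone, with ozone mouse 4 just above filtered-air mouse 5. It fell by 0.27 (SE 0.0478, limma's adjusted p = 0.00620), by 0.22 within batch 1 and by 0.31 within batch 2. St6galnac6 and St6gal1 were called in all 12 fits that left out 1 mouse, and St6gal1 lost its call after quantile normalization (-0.21, adjusted p = 0.0752). St3gal2, which caps galactose on mucin-type glycans and gangliosides, fell by 0.21 (SE 0.0523, limma's adjusted p = 0.0324), but lost its call in 8 of those 12 fits (without filtered-air mouse 1, 2, 3 or 4 or ozone mouse 2, 3, 4 or 6; adjusted p up to 0.0798), with a variance trend (adjusted p = 0.0537) and after quantile normalization (adjusted p = 0.195). Cells with much St6gal1 include B cells, whose listed markers had negative differences as given above, and their part was not tested.

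Genes of sialic acid removal and turnover were called higher in 2 of 8 cases tested, or 25%, against 2.41% of all genes. The list held 10 genes, with a median difference of 0.076 among those tested. Of the 8, 6 differences were positive and 2 negative, the latter those of Slc17a5 (-0.048) and Casd1 (-0.050). Glb1, which encodes the lysosomal beta-galactosidase that forms a complex with the sialidase, ran from -0.054 to 0.033 in filtered air and from 0.18 to 0.25 after ozone, without overlap. It rose by 0.21 (SE 0.0322, limma's adjusted p = 0.00266) and was called in all 12 fits that left out 1 mouse. Neu1, the lysosomal sialidase, ran from -0.064 to 0.070 in filtered air and from 0.081 to 0.21 after ozone, again without overlap. Neu1 rose by 0.14 (SE 0.0365, limma's adjusted p = 0.0415), but its call held in only 2 of the 12 fits that left out 1 mouse, those without filtered-air mouse 2 or ozone mouse 4; in the others the adjusted p reached 0.0997. It was also lost with RNA integrity as a covariate, with a variance trend and after quantile normalization (limma's adjusted p = 0.0594, 0.0519 and 0.210), and with mice paired by replicate number (0.0629). The third partner of that complex, the protective protein gene Ctsa, named after its value was seen, differed by 0.13 (adjusted p = 0.0584).

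**Figure D4:**
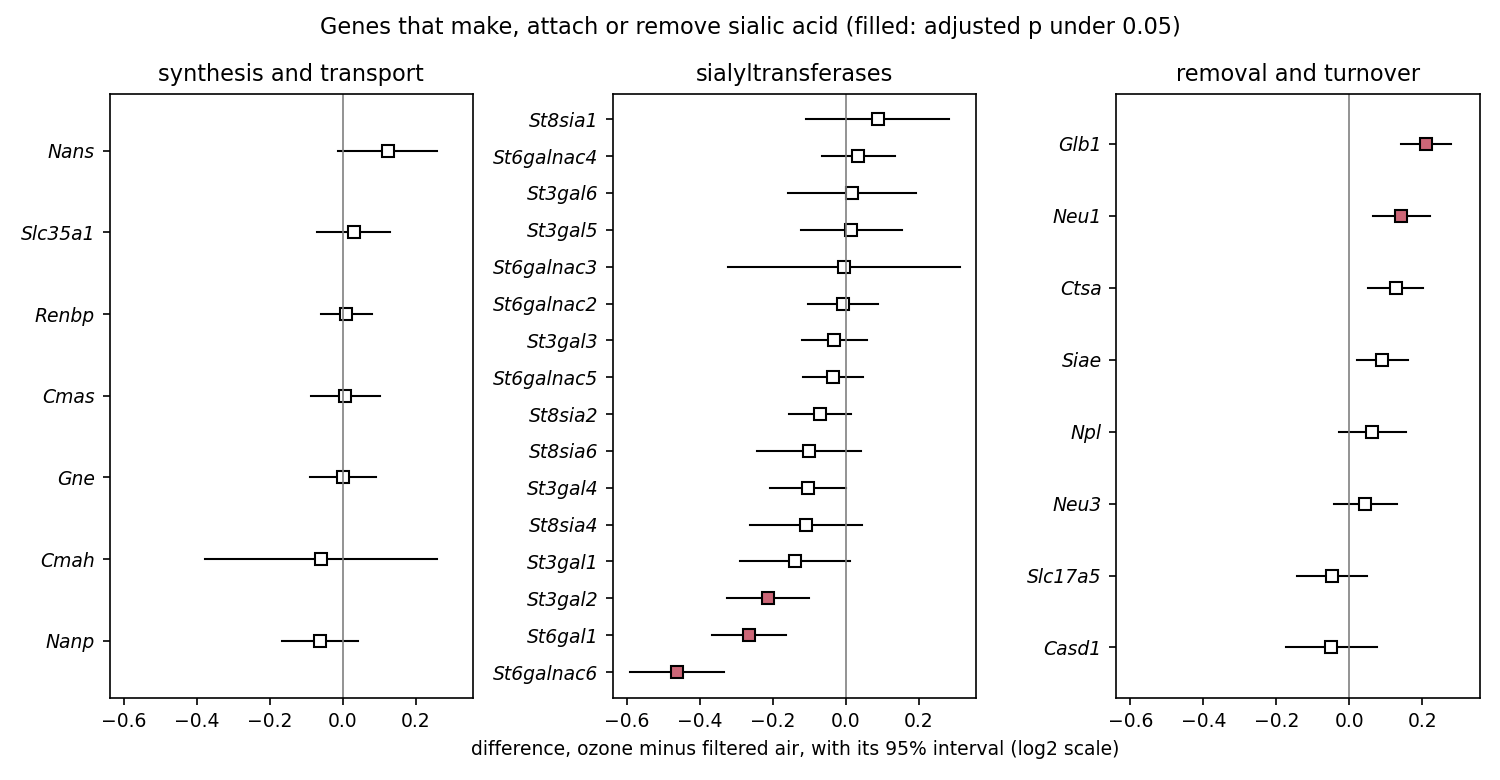
Difference between ozone and filtered air with its 95% interval from limma (x axis, deposited log2 scale) for genes of sialic acid synthesis, for sialyltransferases and for genes of removal and turnover; filled squares have an adjusted p under 0.05. St6galnac6, St6gal1 and St3gal2 lie furthest left, at -0.46, -0.27 and -0.21, and Glb1 and Neu1 furthest right in their panel, at 0.21 and 0.14.

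Genes that synthesize and activate sialic acid showed no call. Of 7, 0 were called in limma and 0 had an unadjusted p under 0.05, against 4.25% and 16.7% of all genes, with a median of 0.0078. Gne, whose product starts the pathway, differed by 0.0021 (SE 0.0423, limma's adjusted p = 0.990), and Cmas, which activates sialic acid for transfer, by 0.0078 (SE 0.0445, adjusted p = 0.960). Nans, which builds the sialic acid skeleton and had the smallest p-value of the list, differed by 0.12 (limma's adjusted p = 0.361). Of 11 genes for carriers and sulfation of Siglec ligands, 0 were called in limma and 4 had an unadjusted p under 0.05, against 16.7% of all genes, with a median of 0.016, or 0.049 without filtered-air mouse 4. Among these, Selplg, a mucin of leukocytes, differed by 0.15 (adjusted p = 0.0549). It passed without a batch term (0.15, limma's adjusted p = 0.0318), with RNA integrity as a covariate (0.16, adjusted p = 0.0368) and without filtered-air mouse 4 (0.18, adjusted p = 0.0189), fits in which the list had 1, 2 and 2 calls. Cd24a, a ligand of the Siglecg product, differed by 0.030 (adjusted p = 0.934).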

How the data were processed

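Polyadenylated RNA of flow-sorted alveolar macrophages from 12 mice was sequenced from both ends on a NovaSeq instrument, per the labels' protocols. The submitters' processing notes name STAR 2.7.7a, Salmon 1.5.2, DESeq2 1.26.0, limma 3.42.2, cutadapt and mm10, without their roles. The deposited values are on a log2 scale, variance-stabilized and batch-corrected by the authors per the name of the file. In the values, the filtered-air mean and the difference of the flow-sort batch means are 0 in every gene, so abundance was not kept and total depth is unknown. How reads of related genes were divided is not given in the sources used here.

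Of 25444 genes that were not constant, 19633 had at least 6 mice above the minimum shared within a batch (the value of 0 reads; tolerance 1e-06) and entered the fit. It used limma 3.58.1 (R 4.3.3) with flow-sort batch as covariate, no variance trend and Benjamini-Hochberg adjustment at 0.05. The first step above that minimum, inverted as a squared hyperbolic sine, gave relative depth. Replicates are separate mice. Genes were named by rule: all members, the called genes of each list and its smallest p-value, and 8 fixed genes. Members and lists were chosen with earlier results of these data known; 2 cell type markers of the original lists are not reported here, for a reason unrelated to their values. Positions are from GENCODE M21 (GRCm38) and sequences from RefSeq (GRCm38.p6). Alternatives covered filters, covariates, variance models, quantile normalization, single batches and leaving out each mouse.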

Additional observations from a re-analysis of the deposited data

Results flagged for a closer look

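In 2 of the 14 combinations of Siglec gene and exposure, 1 mouse stood apart, judged by its gap to the nearest mouse divided by the range (Dixon's 95% critical value for 6 mice); chance gives about 1 in 20. Both concern Siglecg. Ozone mouse 6 lay at -0.0014, above the other 5 ozone mice (ratio 0.848), and without it the difference was -0.18 (limma's adjusted p = 0.0315). Filtered-air mouse 2 lay at -0.16, below the other 5 of its group (ratio 0.632), and without it the difference was -0.19 (limma's adjusted p = 0.0328).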

How the results depend on the processing

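All 7 members kept the sign of their difference under 22 alternatives. After quantile normalization 0 of 7 were called, with Siglece at 0.17 and Siglec1 at 0.22; 171 genes were called in all and 2 pathway genes. In batch 1 alone 0 members, 90 genes and 0 pathway genes were called, with Siglece at 0.18 and Siglec1 at 0.31, and in batch 2 alone 0, 0 and 0, with Siglece at 0.20 and Siglec1 at 0.22; both use fewer mice. Cd33 passed without a batch term, at 0.20. The variance trend gave 3 pathway genes instead of 5. Leaving out 1 mouse gave 1 to 3 members, 538 to 751 genes and 3 to 6 pathway genes, with Siglece from 0.17 to 0.20, Cd33 from 0.17 to 0.23 and Siglecg from -0.19 to -0.13. Pathway genes near 0 changed sign: Gne with RNA integrity as a covariate (-0.0013), in batch 2 (-0.052) and without single mice (-0.012 to 0.033); Inpp5d after quantile normalization (0.0066), in batch 1 (0.097) and without single mice (-0.040 to 0.031); Cmas in batch 2 (-0.00053) and without single mice (-0.019 to 0.030); Ptpn6 in batch 2 (-0.0033); and without single mice Tyrobp (-0.022 to 0.049) and Cd24a (-0.024 to 0.11). Except as said, the cause was not tested.

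The labels number the mice 1 to 6 in each group, yet these are separate animals, and they were not treated as pairs. The deviations of mice numbered 1 to 6 correlated at 0.22, 0.19, -0.0026, 0.28, 0.0072 and 0.17 between the groups. Correlations of differently numbered mice were not computed, so these values do not decide whether the numbers mark pairs. With the replicate block the calls were 2 members and 853 genes (686 shared with the 834), and Neu1 had limma's adjusted p of 0.0629.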
